A study of Mus musculus with 12 samples.

Results

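The genes of the mitochondrial ribosomal proteins were followed in peritoneal macrophages. They were taken by rule as the protein-coding genes of the GRCm38 annotation (GENCODE M21) whose symbol begins with Mrpl or Mrps and a number. There were 78 such genes, 51 of the large subunit, 26 of the small subunit and 1, Mrps36, that is known as a subunit of the 2-oxoglutarate dehydrogenase complex in spite of its symbol. All 78 were listed in both deposited tables. A gene was counted as a member of a table when its mean over the libraries of that table reached 3 normalised counts, which left 73 members in the F4/80lo table, 74 in the F4/80hi table and 73 in both. Members lay on 17 chromosomes. The tested genes of the 2 tables numbered 10718 and 10499, and 10097 genes were tested in both.

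Mitochondrial ribosomes sit in the mitochondrial matrix and make the few proteins that mitochondrial DNA encodes, all of them subunits of the respiratory chain and of ATP synthase. Their RNAs come from mitochondrial DNA, whereas every one of their proteins is encoded in the nucleus, made in the cytosol and imported. Many of these proteins have a counterpart in bacterial ribosomes and the others were added during the evolution of mitochondria. In macrophages, respiratory chain activity is known to differ between inflammatory and alternatively activated states.

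The libraries came from female C57/BL6 mice, all of which received 5 mg/kg zymosan i.p. to start a peritonitis. From day 1 the mice were injected daily with 25 mg/kg compound III (CIII), an inhibitor of microsomal prostaglandin E synthase-1, or with vehicle (VEH), a saline solution of Tween-80 and carboxymethyl-cellulose. Macrophages were sorted from the lavage on day 6 as F4/80lo cells (CD45+, CD11b+, low in F4/80 and MerTK, MHCII high) and F4/80hi cells (CD45+, CD11b+, high in F4/80 and MerTK), with 3 libraries in each of the 4 groups. No naive or uninjected mice were among the libraries, so every comparison was made within zymosan peritonitis. The labels do not say whether a library came from 1 mouse or several, and p-values measure only the spread between these libraries.

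The 12 libraries held 426624 to 3389448 reads on genes, and the 78 genes together took 895 to 6591 of them, or 0.169% to 0.339%. The median over the 78 genes was 9 to 77.5 reads, depending on the library, and 68 of them had a read in every library. The gates were checked against marker genes. The macrophage genes Csf1r, Adgre1 and Mertk were detected in every group, and all 4 mesothelial markers summed to at most 1.20 RPM (reads of a gene scaled to the same total of reads on genes in every library) in any library. Both number 3 libraries of the F4/80hi gate went against their label, since Gata6, the transcription factor that defines resident large peritoneal macrophages, stood at 1.90 (VEH) and 5.73 (CIII) RPM there. It stood at 23.2 to 52.0 in the other 4 F4/80hi libraries and at 0.295 to 8.37 in the F4/80lo libraries. Adgre1, the gene of F4/80 itself, stood at 366 (VEH) and 368 (CIII) RPM in the number 3 F4/80hi libraries. It stood at 1064 to 1336 in the other 4 F4/80hi libraries and at 205 to 381 in the F4/80lo libraries. The number 3 libraries of both gates also stood apart by Gm42418, a gene that overlaps ribosomal RNA, which took 2.65% to 14.3% of their reads and at most 0.579% elsewhere. The members' counts and medians for CIII in each gate and for the level between the gates are therefore also given without number 3.

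Promoters are shown for the 5 members with an unadjusted p under 0.05 for CIII in F4/80hi cells whose window lay outside the annotated gene, because promoters of this family are known for binding sites of the factors NRF1 and GABPA, an ETS factor. Each run holds the 250 bases before the RefSeq transcription start (GRCm38.p6) and is written 5′ to 3′ on the strand of the gene. Capitals mark a match to the NRF1 palindrome (GCGCA followed by any base and GCGC) or to the ETS core CCGGAAG on either strand (CTTCCGG when read from the other strand).
Mrpl42, chr10:95501950-95502199, minus strand: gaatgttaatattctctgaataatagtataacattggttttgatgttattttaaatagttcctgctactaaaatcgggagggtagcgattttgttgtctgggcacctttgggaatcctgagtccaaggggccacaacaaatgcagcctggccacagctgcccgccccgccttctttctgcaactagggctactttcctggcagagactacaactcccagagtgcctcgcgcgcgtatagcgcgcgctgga
Mrpl52, chr14:54426659-54426908, plus strand: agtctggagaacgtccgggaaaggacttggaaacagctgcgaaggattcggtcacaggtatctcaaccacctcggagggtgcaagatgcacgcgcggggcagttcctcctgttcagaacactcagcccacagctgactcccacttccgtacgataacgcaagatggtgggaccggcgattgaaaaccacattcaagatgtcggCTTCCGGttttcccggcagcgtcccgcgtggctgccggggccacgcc
Mrpl30, chr1:37890227-37890476, plus strand: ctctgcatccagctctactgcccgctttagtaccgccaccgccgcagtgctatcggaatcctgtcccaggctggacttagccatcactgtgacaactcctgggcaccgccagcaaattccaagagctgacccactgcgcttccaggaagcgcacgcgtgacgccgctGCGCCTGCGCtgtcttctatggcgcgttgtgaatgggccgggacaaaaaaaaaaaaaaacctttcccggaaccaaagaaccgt
Mrpl34, chr8:71464676-71464925, plus strand: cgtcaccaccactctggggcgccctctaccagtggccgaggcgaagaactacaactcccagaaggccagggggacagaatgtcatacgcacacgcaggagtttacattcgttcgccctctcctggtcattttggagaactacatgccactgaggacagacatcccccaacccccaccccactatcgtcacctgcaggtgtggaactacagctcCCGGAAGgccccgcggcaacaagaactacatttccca
Mrps14, chr1:160194965-160195214, plus strand: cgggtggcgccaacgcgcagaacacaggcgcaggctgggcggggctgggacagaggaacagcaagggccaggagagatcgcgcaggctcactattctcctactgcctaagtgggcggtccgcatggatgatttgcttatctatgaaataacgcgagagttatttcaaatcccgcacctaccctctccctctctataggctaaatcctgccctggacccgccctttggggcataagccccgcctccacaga
Mrpl52 carried the ETS core 47 to 41 bases before the start and Mrpl34 carried it 37 to 31 bases before the start. Mrpl30 carried the NRF1 palindrome 83 to 74 bases before the start, and the windows of Mrpl42 and Mrps14 held neither set of letters. Of the 69 family genes that matched a RefSeq promoter by symbol, 10 (14.5%) held the NRF1 palindrome, against 3.86% of 27025 promoters of the same length, and 17 (24.6%) held the ETS core, against 7.05%. The CCAAT box was found in 36.2% of the family's promoters and in 34.5% of all, and TATAAA in 5.80% and 13.0%. The family's windows were also richer in G and C, with a median of 58.4% against 52.0%. The members' median for CIII in F4/80hi was −0.46 for the 10 with the palindrome and −0.62 for the 55 without it, and −0.65 for the 16 with the ETS core and −0.56 for the 49 without it. The same medians in F4/80lo were −0.35 and −0.37, and −0.13 and −0.40. These differences were not tested. The matches are letters in a window and were not tested as binding sites.

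All members were expressed at low to moderate levels. QuantSeq counts 1 fragment near the 3′ end of each mRNA, so the counts were compared between genes without division by length. Over the 6 F4/80lo libraries the members' mean counts ranged from 4.20 to 177 normalised counts with a median of 26.1, where the median over all genes tested was 30.7. In F4/80hi cells they ranged from 3.27 to 206 with a median of 27.6, against 29.1 for all genes tested. Mrpl33, which encodes a small protein of the large subunit with a bacterial counterpart, was the most abundant member in both tables, at 177 and 206 normalised counts. It was followed by Mrpl52, a large subunit protein found only in mitochondria, at 90.3 and 73.9. Mrpl20 (65.0 and 63.3) and Mrps15 (60.9 and 63.9) came next with Mrpl24 (56.0) in F4/80lo and Mrpl18 (64.2) in F4/80hi, and lay close to each other. Levels of the 73 shared members ran in nearly the same order in both tables (Pearson's r = 0.93 across genes on the log2 scale, as a description, since the genes share libraries).

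The least abundant members also included Mrps10 (6.39 and 8.56), Mrps31 (9.49 in F4/80lo), Mrps35 (11.3 in F4/80lo) and Mrps18a (9.85 in F4/80hi), all of the small subunit by symbol. Below them, 5 genes missed the minimum in the F4/80lo table. They were Mrpl53 (mean of 0.408 in F4/80lo, 0.12 in F4/80hi), Mrpl23 (0.851, 1.62), Mrps36 (0.932, 2.87), Mrps18b (1.03, 1.03) and Mrps11 (2.69 in F4/80lo), and Mrps11 alone of them reached it in F4/80hi, at 3.27. The members just inside were Mrpl9 (4.20 and 4.60) and Mrpl22 (5.59 and 5.28). Such means were only a few reads per library, since 1 read was worth 0.333 to 2.28 normalised counts and a count of 0 allows up to 0.999 to 6.85 normalised counts (3 reads, counting error only). A processed pseudogene, Mrpl23-ps1, had a mean of 3.84 in F4/80hi, above that of Mrpl23 itself, and reads of the pair may have been divided between them by the counting. Of the family, 33 genes overlap another annotated gene, 8 of them one on the same strand. Mrpl46 and Mrps11 overlap each other on opposite strands, and the strand setting of the counting was not given in the sources used here.

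The first comparison asked whether the family differed between CIII and VEH in F4/80hi cells. Members were mostly lower with CIII: 66 of 74 had a log2 fold change below 0, where 46.5% of all genes tested did, and the median was −0.53 against 0.05 for all genes tested. None passed the threshold of an adjusted p under 0.05 in limma (percent of all genes called, 0%), and edgeR called 0 of 74 as well. DESeq2 called 0, and left the adjusted p of 73 of the 74 without a value. At an unadjusted p under 0.05, 10 members were lower and 0 higher, where 2.65% of all genes were lower and 1.29% higher by that rule. The same count was 10 in edgeR (2.71% of all genes) and 9 in DESeq2 (2.98%). With libraries of the same number blocked together, the count became 18 of 74 (replicate block), where 6.24% of all genes were lower. In 15 members all 3 CIII libraries lay below all 3 VEH libraries (5.76% of all genes), and in 0 they lay above (4.73%). Within numbers 1, 2 and 3 the median was −0.59, −0.36 and −0.69. Without number 3, the median was −0.44 against 0.03 for all genes, 59 of 74 were lower (48.3% of all genes) and 6 were lower at an unadjusted p under 0.05 (3.51% of all genes). The count of 10 became 3 without VEH number 1 (0.981% of all genes), 5 without CIII number 2 and 6 without CIII number 3 (1.67% in either case). With each library set to the same total, the median of all genes moved from 0.05 to 0.15 and that of the members to −0.43. In that setting 61 members were lower (39.4% of all genes) and 6 were lower at an unadjusted p under 0.05 (1.77%). With all 78 genes and no minimum, 66 were lower (46.7% of all genes) and the median was −0.50.

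The member with the smallest p in F4/80hi was Mrpl42, which encodes a large subunit protein found only in mitochondria (chr10:95480805-95501940). Its VEH libraries held 91.7, 99.3 and 57.6 normalised counts and its CIII libraries 36.8, 30.0 and 26.3. The lowest VEH library lay above the highest CIII library. The log2 fold change was −1.36 ± 0.37 (SE, n = 3 against 3, unadjusted p = 0.00512, adjusted p = 0.992 in limma), and leaving out 1 library at a time kept it between −1.60 and −1.22.

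Mrpl28, a large subunit protein with a bacterial counterpart (chr17:26123500-26126613), was at 31.9, 27.4 and 41.9 normalised counts with VEH and at 10.1, 14.4 and 10.9 with CIII. The groups did not overlap, and the log2 fold change was −1.43 ± 0.43 (limma, unadjusted p = 0.00885). Mrps18c, 1 of 3 mammalian versions of bacterial S18 and the one in the small subunit's ancestral place, held 43.9, 36.6 and 51.4 counts with VEH and 19.5, 25.2 and 10.4 with CIII, again without overlap (−1.28 ± 0.45). It overlaps Gm43511 on the same strand, a gene with a mean of 2.20 counts in this table. Mrps16, a small subunit protein with a bacterial counterpart, stood close together in VEH at 47.9, 49.6 and 47.2 and lower in CIII at 18.8, 27.6 and 26.8 (−0.97 ± 0.37). Mrps14, also of the small subunit, held 81.1, 48.3 and 65.0 counts against 34.7, 33.7 and 31.2 (−0.92 ± 0.36). Its 3 CIII libraries lay within 4 counts of each other.

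Mrpl52, Mrpl34 and Mrpl30 overlapped between the groups. For Mrpl52, the VEH libraries held 129, 62.7 and 117 counts and the CIII libraries 63.5, 26.4 and 44.3, so the number 1 CIII library just reached the number 2 VEH library, although CIII was lower within every number (−1.20 ± 0.45, limma, unadjusted p = 0.0239, or 0.00145 with the number as a block). Mrpl34, a large subunit protein with a bacterial counterpart, held 69.1, 103 and 36.7 counts against 45.5, 27.6 and 14.8 (−1.24 ± 0.53). Mrpl30 held 79.8, 49.6 and 27.3 counts against 31.0, 20.4 and 13.1 (−1.19 ± 0.51). In both, the number 3 VEH library lay below the number 1 CIII library, while CIII was lower within every number. Mrpl54 (−1.13 ± 0.47) and Mrpl49 (−1.26 ± 0.49), large subunit proteins found only in mitochondria, completed the 10, and their groups did not overlap. Mrpl49 overlaps Syvn1 on the opposite strand, which had a mean of 54.3 counts.

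**Figure D1:**
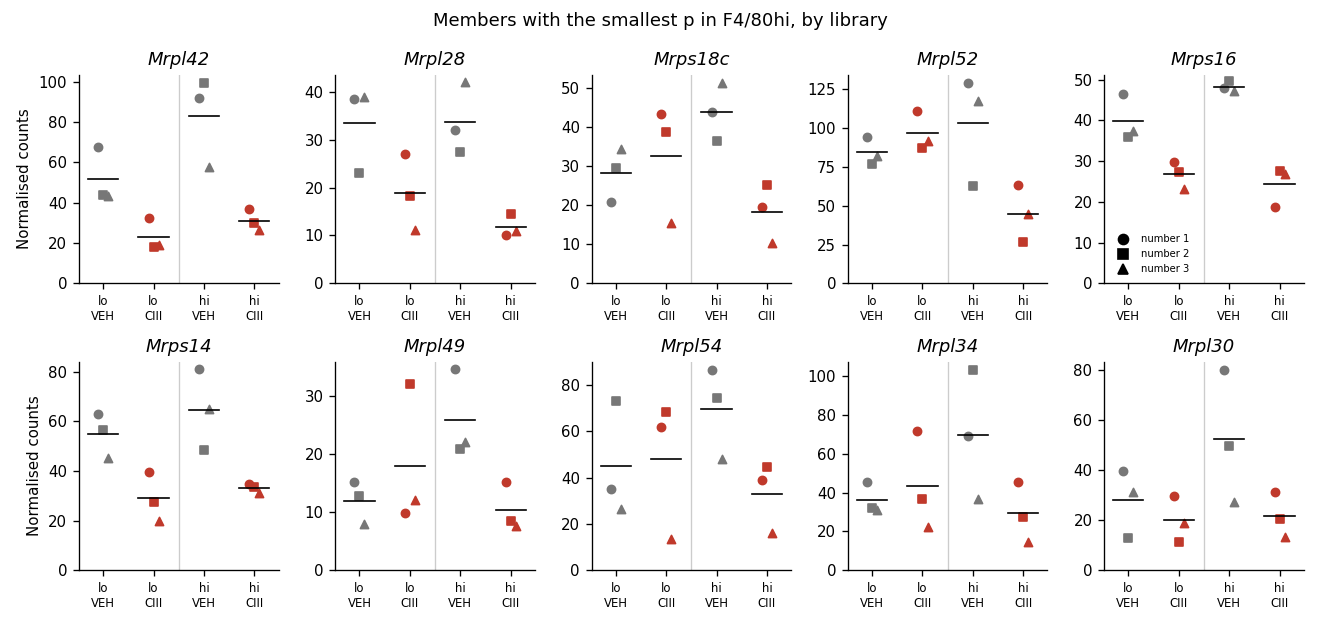
Normalised counts (y axis, linear, from 0) of the 10 members with an unadjusted p under 0.05 in F4/80hi cells, 1 panel per gene, with 1 point per library, the shape giving the replicate number, grey for VEH, red for CIII, and a bar at each group mean. In F4/80hi all 10 genes have a lower mean with CIII; in F4/80lo only some of them do, among them Mrpl42 and Mrps14.

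Few members went the other way. Of the 8 with a log2 fold change above 0, the smallest p belonged to Mrps9, a protein of the small subunit's head, at 16.0, 23.5 and 63.9 counts with VEH and 28.9, 36.1 and 57.4 with CIII (0.42 ± 0.55, unadjusted p = 0.466). Mrpl9 (0.65 ± 0.86) and Mrps35 (0.39 ± 0.53) came next. In all 3 the VEH and CIII libraries overlapped, and the value of Mrpl9 rested on 10 or fewer counts per library.

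By role, the median was −0.50 for the large subunit with 43 of 49 members lower and −0.64 for the small subunit with 23 of 25 lower. Members with a bacterial counterpart (median −0.58, 40 of 45 lower) and those found only in mitochondria (−0.45, 26 of 29) both lay below 0, and the differences between these classes were not tested. In the stalk that binds translation factors, Mrpl12 was at −0.80 ± 0.43, Mrpl11 at −0.16 ± 0.56 and Mrpl10 at 0.21 ± 0.47. Near the peptidyl transferase centre, Mrpl2 (0.04 ± 0.52), Mrpl3 (0.05 ± 0.44) and Mrpl16 (−0.37 ± 0.44) all lay within 1 SE of 0. At the exit of the peptide tunnel, Mrpl45 was at −0.79 ± 0.48, while Mrpl24 (−0.03 ± 0.35) and Mrpl44 (−0.02 ± 0.45) were near 0. Of the central protuberance, Mrpl46 (−1.24 ± 0.62), Mrpl48 (−0.98 ± 0.60), Mrpl18 (−0.74 ± 0.45) and Mrpl27 (−0.67 ± 0.53) were below 0 and Mrpl38 (0.06 ± 0.56) was not. On the decoding side, Mrps12 was at −0.74 ± 0.51 and Mrps5 at −0.80 ± 0.82, and in the head Mrps7 was at −0.94 ± 0.50. Mrpl58, which releases stalled peptides as a peptidyl-tRNA hydrolase within the ribosome, was at −0.28 ± 0.69. Mrps30 (−0.49 ± 0.56) and Mrps18a (−0.37 ± 0.61), 2 proteins of the large subunit in spite of their symbols, and Mrps2 (−0.26 ± 0.38) were also below 0. None of these differences passed an unadjusted p of 0.05 without the block. With the number as a block, 1 member of the stalk and 1 of the central protuberance were lower at an unadjusted p under 0.05.

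In the same libraries, the family's share of all reads, which does not use the authors' scaling, was also lower with CIII. In F4/80hi the 78 genes summed to 3388, 2854 and 2472 RPM with VEH and 2333, 2161 and 1690 with CIII, so that the 3 CIII libraries lay below the 3 VEH libraries. Within the numbers the share was 31.1%, 24.3% and 31.6% lower with CIII. A lower summed share can come from less RNA of the family per cell, from fewer cells that hold it or from more RNA of other genes. These cannot be told apart in sorted bulk samples. In F4/80lo the sums were 2745, 2644 and 1945 with VEH and 2566, 2098 and 1845 with CIII. They were lower with CIII in each number, by 6.52%, 20.6% and 5.1%, and the groups overlapped.

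**Figure D2:**
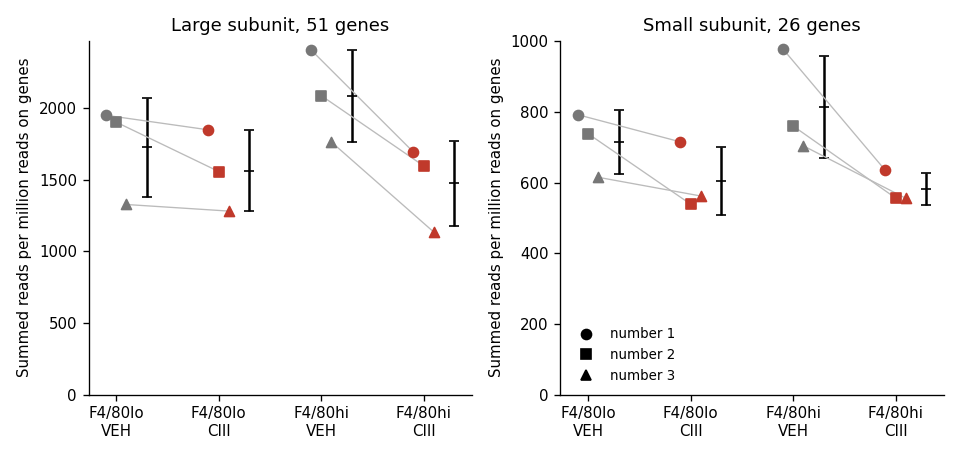
Summed RPM (y axis, linear, from 0) of the 51 large subunit genes (left) and the 26 small subunit genes (right) in each library, the shape giving the replicate number, with grey lines joining libraries of the same number and black bars for the group mean and SD (n = 3). Lines slope down from VEH to CIII for every number in both gates, and in F4/80hi the 3 CIII points lie below the 3 VEH points in both panels.

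Several other measures differed with treatment in the F4/80hi libraries. The 7 markers of monocyte-derived macrophages summed to 758 to 3125 RPM with VEH and 1520 to 14297 with CIII, and 6 of the 6 tested were higher with CIII (median log2 fold change of 1.57). Of the 7, 4 are genes of MHC class II antigen presentation. Ccr2, the chemokine receptor of monocytes, did not follow the sum in number 3, where it stood at 1199 RPM with VEH and 704 with CIII, while it stood at 52.5 and 20.2 with VEH and 306 and 118 with CIII in numbers 1 and 2. The 8 resident macrophage markers summed to 722 to 4930 with VEH and 974 to 3687 with CIII, with 7 of 8 lower, among them Gata6 at a log2 fold change of −0.00032, and none of them at 0 in either group. Their sum was lower with CIII in numbers 1 and 2 and higher in number 3, at 722 with VEH and 974 with CIII. The 7 neutrophil markers summed to 33.3 to 85.7 with VEH and 15.5 to 31.1 with CIII. The T and NK cell markers summed to 5.52, 1.45 and 21.9 RPM with VEH and 0, 0 and 1.15 with CIII, without overlap. The B cell markers summed to 2.76, 0 and 37.1 with VEH and 63.9, 19.0 and 11.5 with CIII, with overlap. The study's gating classes lymphoid cells as CD11b- and takes F4/80hi macrophages from CD11b+ cells. Its cytometry gives F4/80hi macrophages as low in Ly6G, the neutrophil marker. Each CIII library was also deeper than the VEH library of its number. The part of these measures in the family's difference was not tested.

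Coding length went with the CIII response as well. The longest coding sequence of the 78 genes had a median of 582 bases, against 1380 for all genes tested in both tables. Across all 9675 genes with a coding length in F4/80hi, the log2 fold change went with log2 coding length (Pearson's r = 0.38, a description across genes of the same libraries), and among the 74 members r was 0.42. The part of coding length in the family's difference was not tested. Of the 874 genes with a coding sequence of up to 500 bases, 80.5% were lower with CIII (median −0.56), and of the 25 members in that class 24 were lower (median −0.92). Over 500 and up to 1000 bases the medians were −0.17 for all genes and −0.45 for 38 members, and above 1000 bases 0.18 for all genes and −0.24 for 11 members. In F4/80lo the correlation was 0.08 over 9772 genes and 0.03 over the 73 members. In F4/80hi the members' median thus lay below that of all genes in each of the 3 classes, whereas in F4/80lo it did so only in the middle class.

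**Figure D3:**
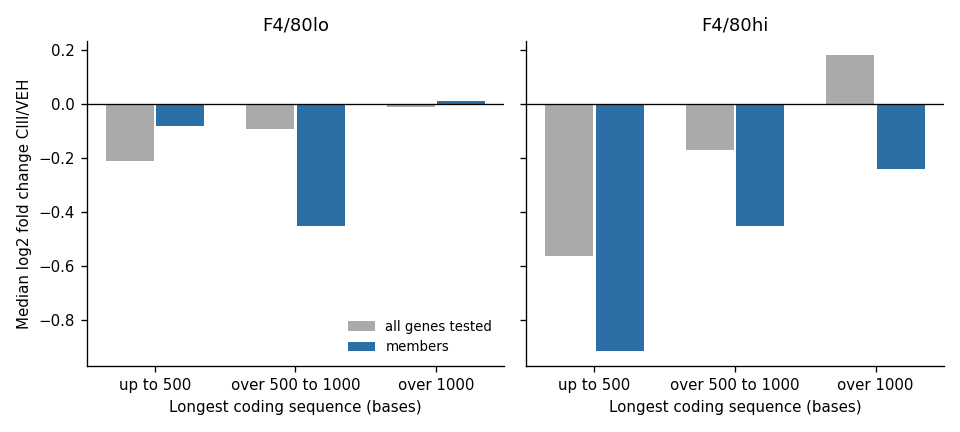
Median log2 fold change of CIII against VEH (y axis, linear, bars from 0) of all genes tested (grey, members included) and of members (blue), in 3 classes of the longest coding sequence in bases (x axis), for F4/80lo (left) and F4/80hi (right). In F4/80hi the bars of all genes go from −0.56 to 0.18 with length and those of the members from −0.92 to −0.24.

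The same question in F4/80lo cells gave a median nearer to 0. Of 73 members, 50 were lower with CIII, where 54.1% of all genes were, and the median was −0.37 against −0.05 for all genes tested. No member had an adjusted p under 0.05 in limma, edgeR or DESeq2 (percent of all genes called in limma, 0%). At an unadjusted p under 0.05, 4 members were lower and 0 higher, where 1.61% of all genes were lower and 1.08% higher, and 6 were lower with the number as a block (3.85% of all genes). All 3 CIII libraries lay below all 3 VEH libraries in 9 members (4.92% of all genes) and above them in 1 (3.82%). The count of 4 depended on single libraries, and the share of all genes moved with them. The count was 0 without VEH number 1 (0.616% of all genes) and 0 without CIII number 2, the shallowest library (1.28%). It was 2 without VEH number 2 (0.952% of all genes), in edgeR (1.71%), in DESeq2 (1.59%) and with each library set to the same total (1.20%). Without number 3 it was also 2 (2.9% of all genes), 47 of 73 were lower (52.6% of all genes) and the median was −0.19 against −0.04 for all genes. With all 78 genes and no minimum, 55 were lower (59.2% of all genes) and the median was −0.37.

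Mrpl42 again had the smallest p. Its VEH libraries held 67.5, 43.6 and 43.3 normalised counts and its CIII libraries 32.6, 18.3 and 18.8, with no overlap (−1.13 ± 0.45, limma, unadjusted p = 0.0274, adjusted p = 1.00). Mrpl48, of the central protuberance, held 25.6, 15.4 and 27.6 counts against 9.93, 4.57 and 9.95 (−1.41 ± 0.59). Mrpl13, a large subunit protein with a bacterial counterpart, held 26.8, 35.9 and 27.3 against 12.8, 4.57 and 19.9 (−1.39 ± 0.60). Mrps5 held 16.3, 27.0 and 23.6 against 7.09, 2.28 and 15.5 (−1.59 ± 0.70). In CIII number 2, a value of 4.57 is 2 reads and 2.28 is 1 read. Mrps14 followed with 62.8, 56.5 and 45.3 counts against 39.7, 27.4 and 19.9 (−0.94 ± 0.43, unadjusted p = 0.0501).

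In the opposite direction, Mrps34, a small subunit protein found only in mitochondria, held 10.5, 23.1 and 19.7 counts with VEH and 23.4, 38.8 and 25.4 with CIII. It was the 1 member whose CIII libraries all lay above the VEH libraries, though narrowly (0.72 ± 0.51, unadjusted p = 0.186). It overlaps Nme3 on the same strand. Mrps22 (0.83 ± 0.61) and Mrps27 (0.81 ± 0.69), also of the small subunit, came next, and their groups overlapped.

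By role, the small subunit's median in F4/80lo was −0.47 with 16 of 24 lower and the large subunit's −0.30 with 34 of 49 lower. Members with a bacterial counterpart had a median of −0.41 (34 of 44 lower), and those found only in mitochondria −0.12 (16 of 29). Of the role genes, Mrpl16 (−0.99 ± 0.52), Mrpl11 (−0.91 ± 0.59), Mrps7 (−0.80 ± 0.64) and Mrps30 (−0.70 ± 0.53) were more than 1 SE below 0. Mrpl12 (−0.06 ± 0.60), Mrpl24 (−0.07 ± 0.40) and Mrpl2 (0.02 ± 0.43) were close to 0. Here the 7 monocyte-derived markers summed to 4346 to 14685 RPM with VEH and 15501 to 27694 with CIII, with 6 of 7 higher. The B cell markers summed to 129, 28.2 and 19.2 with VEH and 185, 77.4 and 27.8 with CIII, with overlap. The T and NK cell markers summed to 5.98, 5.65 and 8.85 with VEH and 7.69, 25.8 and 8.11 with CIII, also with overlap. The neutrophil markers summed to 28.3 to 38.1 with VEH and 7.03 to 20.0 with CIII. The study's cytometry defines F4/80lo macrophages as Ly6G-, a gate that removes neutrophils. The part of these markers was not tested.

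The responses in both gates were then set side by side. The members' median of the difference (F4/80lo response minus F4/80hi response) was 0.18, against −0.09 for all genes tested, and 28 of 73 members had the lower response in F4/80lo, where 55.9% of all genes did. No member's difference passed an adjusted p of 0.05 (percent of all genes called, 0%). At an unadjusted p of 0.05, 2 passed, where 1.71% of all genes did, or 3 with the number as a block within each gate (5.34%). The count was 0 without VEH number 1 of F4/80hi. Without CIII number 3 of F4/80lo, 6 members had the higher response in F4/80lo at that unadjusted p and 1 the lower (1.27% and 1.84% of all genes). Mrpl49, the first of the 2 in the main fit, held 34.6, 20.9 and 22.0 counts with VEH and 15.2, 8.41 and 7.66 with CIII in F4/80hi. In F4/80lo it held 15.1, 12.8 and 7.99 with VEH and 9.93, 32.0 and 12.2 with CIII, where CIII number 2 stood above the other 5 libraries. Mrpl52, the other, was at 94.3, 77.0 and 81.6 counts with VEH and 111, 86.8 and 91.8 with CIII in F4/80lo. Mrpl52 was thus slightly higher with CIII in every number in F4/80lo and lower in every number in F4/80hi. Over the 73 shared members the responses in the 2 gates had a Pearson's r of 0.25, close to the 0.23 over all 10097 shared genes, both descriptions across genes. Mrps18c, Mrpl34 and Mrps22 had the next smallest p for the difference, at 1.38, 1.35 and 1.45, and Mrpl13 the smallest among those of the opposite sign (−1.28). Mrpl42, Mrpl28 and Mrps14 lay low in both gates.

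**Figure D4:**
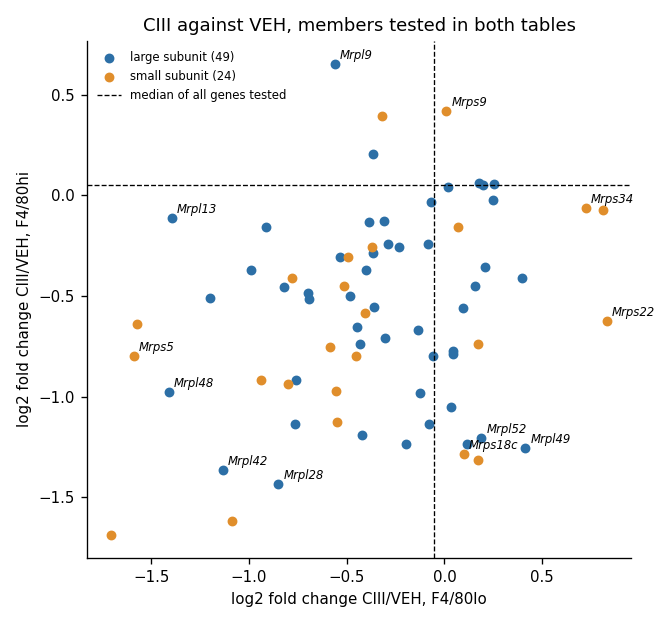
Log2 fold change of CIII against VEH in F4/80lo (x axis) and F4/80hi (y axis) for the 73 members tested in both tables, 1 point per gene, blue for the large and orange for the small subunit, with dashed lines at the medians of all genes tested. Most points lie below the horizontal dashed line; Mrpl42 is low on both axes, and Mrpl52, Mrpl49 and Mrps18c are low in F4/80hi alone.

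The next comparison asked whether the 2 gates differed in the level of the family. Because the 2 tables were scaled separately, levels were compared as RPM, each library divided by its own total of reads on genes. Over 12 libraries, the members' median log2 difference (F4/80lo minus F4/80hi) was −0.07, against 0.06 for all genes tested, and 46 of 73 were lower in F4/80lo, where 44.4% of all genes were. Without F4/80lo CIII number 3 the median was 0.02 and 35 of 73 were lower. No member passed an adjusted p of 0.05 in limma, where 0.0396% of all genes did, and 0 passed an unadjusted p of 0.05, where 2.49% of all genes were lower and 6.18% higher. With treatment and number as a block, 2 members were lower (7.15% of all genes) and 1 higher (13% of all genes) at an unadjusted p under 0.05, and 0 passed after adjustment, where 5.05% of all genes did. In VEH alone the median was −0.18 with 49 of 73 lower (41.8% of all genes), and 0 members passed an unadjusted p of 0.05 in either direction (1.07% and 4.41% of all genes). In CIII alone it was 0.02 with 34 of 73 lower (48.5% of all genes), and 1 member was lower (2.09%) and 1 higher (2.64%) by that rule. Without number 3, the 12 libraries became 8, the median was −0.06, 42 of 73 were lower (47.5% of all genes) and 3 were lower at an unadjusted p under 0.05 (7.3% of all genes).

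The smallest p belonged to Mrpl40, a large subunit protein found only in mitochondria. Its lowest, median and highest values were 16.2, 27.1 and 51.6 RPM in F4/80lo cells against 13.2, 64.9 and 96.9 RPM in F4/80hi cells, and the ranges overlapped (−0.90 ± 0.44, limma, unadjusted p = 0.0573). For Mrpl42 the same values were 18.8, 36.9 and 69.3 RPM against 27.5, 46.5 and 110 RPM (−0.59 ± 0.29). Mrpl38 (0.59 ± 0.34) and Mrpl52 (0.44 ± 0.26) were on the higher side in F4/80lo and Mrpl13 (−0.59 ± 0.38) on the lower side, and all of them overlapped between the gates. Mrpl33, the most abundant, was at 128, 181 and 235 RPM against 145, 201 and 347 RPM (−0.24 ± 0.25). Mrpl2 (0.46 ± 0.33) came next among those higher in F4/80lo. The 1 member lower in CIII alone was Mrpl13 (limma, unadjusted p = 0.0373). Within CIII alone, Mrpl52 was higher in F4/80lo by 1.12 on the log2 scale (limma, unadjusted p = 0.00976, adjusted p = 0.993).

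The other genes of mitochondrial translation were read from lists, none of which held a gene with an adjusted p under 0.05 in either gate. Of 5 mitoribosomal proteins without an Mrp symbol, 4 were lower with CIII in F4/80hi (median −0.80) and 4 in F4/80lo (−0.78). Aurkaip1, also known as a mitoribosomal small subunit protein, held 67.8, 70.5 and 78.6 counts with VEH and 30.3, 45.7 and 33.9 with CIII in F4/80hi, without overlap (−0.98 ± 0.35, limma, unadjusted p = 0.0192). Chchd1, of the small subunit, held 87.8, 133 and 127 against 76.5, 55.3 and 65.1 (−0.80 ± 0.34), and the groups did not overlap either. Dap3, a GTP-binding protein of the small subunit, was at −0.54 ± 0.47 in F4/80hi and −0.78 ± 0.44 in F4/80lo, and Ptcd3, a pentatricopeptide protein of the small subunit, at 0.44 ± 0.65 and −1.61 ± 1.02.

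The factors around the ribosome were read from 4 further lists, and their difference from the family was not tested. Of 26 genes of assembly and rRNA modification tested in F4/80hi, 12 were lower (median 0.06), and of 21 genes of mitochondrial tRNA charging, aminoacyl-tRNA synthetases with the amidotransferase subunits Qrsl1 and Gatc, 8 were lower (0.16). Of 13 translation factors 9 were lower (−0.20), and of 21 genes of mitochondrial transcription and RNA handling 11 were lower (−0.12), among them Slirp, which stabilises mitochondrial mRNAs, at 106, 69.2 and 121 counts against 69.3, 42.1 and 31.2 (−1.08 ± 0.41). The assembly genes with the smallest p in F4/80hi were Malsu1 (−0.74 ± 0.45), a factor that keeps the subunits apart during assembly, and the GTPase Mtg1 (−0.67 ± 0.45). In F4/80lo the medians of these 4 lists were −0.19, 0.14, −0.39 and −0.21, in the same order. Mtfmt, which formylates the initiator tRNA, held 20.9, 27.0 and 15.7 counts against 6.38, 4.57 and 9.95 there, without overlap (limma, unadjusted p = 0.0288). Tfam, which packages mitochondrial DNA, was at −0.43 ± 0.40 in F4/80hi and 0.10 ± 0.46 in F4/80lo. The RNA polymerase Polrmt was at 0.97 ± 0.55 and 0.31 ± 0.63. The regulators named with the promoters stood near 0 in F4/80hi, with Nrf1 at −0.23 ± 0.41 and Gabpa at −0.01 ± 0.41. Tufm, the elongation factor Tu, ranged from 0 to 18.3 counts in F4/80hi, too few for a value to be read.

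Genes encoded in mitochondrial DNA had a median of −0.54 in F4/80hi (8 of 10 lower), where it was −1.30 within number 3, −0.27 within number 2 and −0.09 within number 1. In F4/80lo the median was −0.37 (9 of 10 lower), and it was −1.22 within number 1, 0.19 within number 2 and −0.11 within number 3. The mRNA mt-Co1 held 1299, 1215 and 1591 counts with VEH and 2327, 1019 and 748 with CIII in F4/80hi (−0.17 ± 0.48), and mt-Nd1 was at −0.65 ± 0.73. The mitochondrial rRNAs, which the mitoribosome is built on, followed the replicate number instead. In F4/80hi, mt-Rnr1 held 2163, 1223 and 42439 counts with VEH and 1652, 2024 and 38546 with CIII, so number 3 was far higher under either treatment, and mt-Rnr2 did likewise. Since the libraries are primed on poly(A), such counts are no measure of the amount of rRNA.

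The larger protein families of respiration and cytosolic translation had lower medians in F4/80hi. There, 80 of 80 cytosolic ribosomal proteins were lower (median −1.15, 37 with an unadjusted p under 0.05) and 76 of 78 nuclear genes of the respiratory chain and ATP synthase (−0.94, 36 with an unadjusted p under 0.05), beside 66 of 74 members of the family (−0.53, 10). Of all genes tested there, 46.5% were lower and 2.65% were lower at an unadjusted p under 0.05. With the number as a block, these counts were 73, 57 and 18, and the share of all genes was 6.24%. In F4/80lo the 3 medians were −0.39, −0.33 and −0.37. The difference between these families was not tested.

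**Figure D5:**
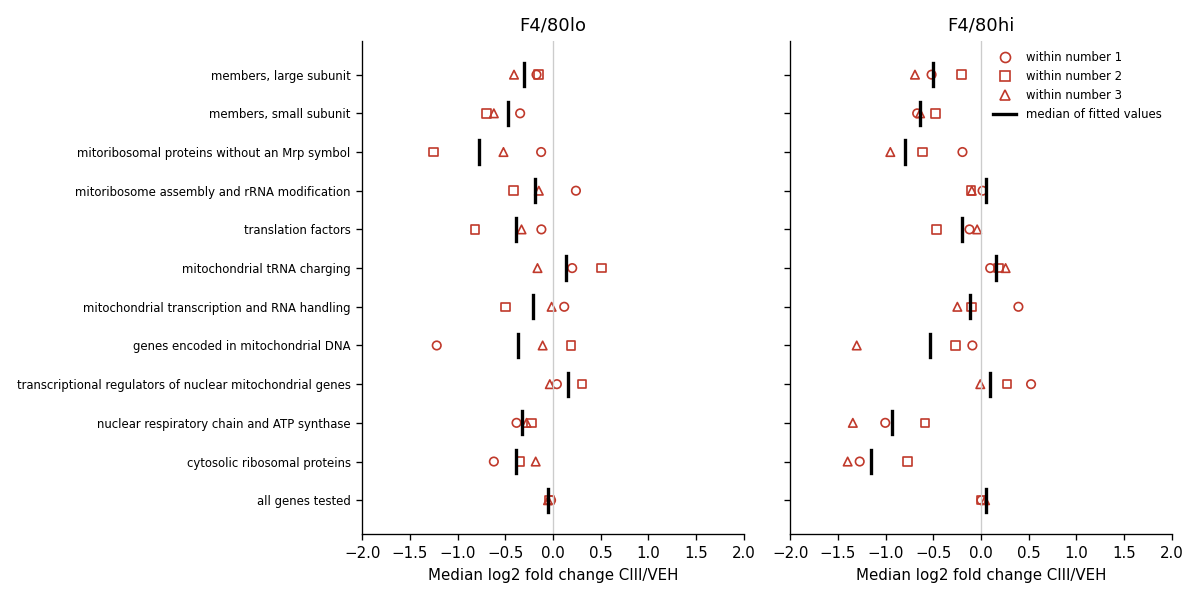
Median log2 fold change of CIII against VEH (x axis, linear) for each list of genes (y axis) in F4/80lo (left) and F4/80hi (right), with a black bar for the median of the fitted values and open red symbols for the median within each replicate number. In F4/80hi both subunits of the family lie left of 0 in every number, between the assembly factors and tRNA charging genes near 0 and the cytosolic ribosomal proteins at −1.15.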

How the data were processed

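The data were 12 QuantSeq 3′ libraries with molecular identifiers, 3 in each of 4 groups, deposited as 1 table per gate. Per the labels and the study's methods, the authors trimmed reads with Bbduk, collapsed identifiers, aligned with STAR to GRCm38, counted with HTSeq and divided the counts by DESeq2 size factors within each table (versions and strand setting not given in the sources used here). The deposited signal values are thus normalised counts, and 100% were whole multiples of 1 read (tolerance 0.01), so reads on genes could be recovered. Groups came from the labels. Symbols came from GENCODE M21, which named 47224 of 47643 listed genes.

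Genes with a mean of at least 3 normalised counts in a table were tested with limma 3.58.1 (R 4.3.3) on log2(normalised count + 1), with a trended variance, separately in each table, and p-values were adjusted by Benjamini and Hochberg over all genes tested. Fold changes on this scale understate the change of low genes. The difference of the responses was an interaction term over 12 libraries, with the 2 gates treated as independent. Its block joined same-numbered libraries within a gate only. Levels in the 2 gates were compared on log2(RPM + 1), where RPM are reads scaled to a common total of reads on genes, since the tables were scaled separately. Recovered reads were also tested with edgeR 4.0.16 (quasi-likelihood) and DESeq2 1.42.0. The fits were tested on simulated data with planted changes of 2 on the log2 scale, up or down. Most changed genes missed the adjusted threshold in both treatment comparisons and every one did for the difference of the responses. Smaller changes were not simulated. The named members were those of fixed roles, the 5 with the smallest p in each comparison, the 3 with the smallest p against the median's direction, the 5 highest and lowest means, all under the minimum, and in other lists the genes with the smallest p. Members that completed a count at an unadjusted p under 0.05 were named after their values were seen.

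The replicate numbers recur in all 4 groups. Deviations from the group means were correlated between same-numbered libraries, at 0.12 to 0.50 (F4/80lo) and 0.22 to 0.64 (F4/80hi) between treatments, and at 0.27 to 0.71 between gates. Libraries of other numbers were correlated at −0.36 to 0.17 (F4/80lo) and −0.53 to 0.28 (F4/80hi) between treatments, and VEH number 1 was closer to CIII number 2 than to CIII number 1 in both gates (0.17 against 0.12, and 0.28 against 0.22). Every same-numbered pair was over 0.1, the limit set for treating the numbers as pairs. This comes from the data, since the labels do not say what a number marks. No 2 of the 66 library pairs held identical values. The limits that a count of 0 allows cover counting error only. The members and lists were chosen with earlier results of these data known.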

Additional observations from a re-analysis of the deposited data

Results flagged for a closer look

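For 2 members the response to CIII differed between the gates at an unadjusted p under 0.05. They were 2 of 73, where 1.71% of all genes passed, and the count was 0 without F4/80hi VEH number 1. Mrpl49 had a difference of 1.67 (F4/80lo minus F4/80hi, log2), at 0.41 in F4/80lo and −1.26 in F4/80hi, and Mrpl52 had one of 1.39, at 0.19 and −1.20. Neither passed adjustment over all genes in limma (adjusted p = 0.999). Mrpl49 overlaps Syvn1 on the opposite strand, and the part of Syvn1 reads in its counts was not tested.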

How the results depend on the processing

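The members' count at an adjusted p under 0.05 was 0 under every alternative run. Of the median and the 5 members with the smallest p in each comparison, only the median of the level changed its sign. That median, which no test called, became 0.02 with 35 of 73 members lower in F4/80lo without F4/80lo CIII number 3. In F4/80lo, the count of members lower with CIII at an unadjusted p under 0.05 was 4 (1.61% of all genes). It was 2 with the same total per library (1.20%), 2 in edgeR (1.71%) and 2 in DESeq2 (1.59%). With numbers 1 and 2 alone it was also 2 (2.90%), and the median was −0.19. In F4/80hi that count was 10 (2.65% of all genes). It was 6 with the same total (1.77%), 6 with numbers 1 and 2 alone (3.51%) and 18 with the replicate number as a block (6.24%). For the level between the gates, the count of members lower in F4/80lo was 0 (2.49% of all genes). It was 1 with a pseudocount of 5 (2.70%), 2 with TMM (3.99%) and 2 with the block (7.15%). It was 2 in edgeR (4.21%), 2 in DESeq2 (5.11%) and 3 with numbers 1 and 2 alone (7.30%). The block changed no call of a member at an adjusted p. It moved the unadjusted counts from 4 to 6 in F4/80lo and from 2 to 3 for the difference of responses, and in the F4/80hi table those of cytosolic ribosomal proteins from 37 to 73 and of the respiratory chain and ATP synthase from 36 to 57 (from 7 to 23 and from 3 to 8 in the F4/80lo table). Leaving out 1 library at a time moved the members' counts over 0 to 4 in F4/80lo, 3 to 11 in F4/80hi and 0 to 3 for the level. The share of all genes moved over 0.616% to 3.44%, 0.981% to 4.88% and 1.40% to 6.13%, in the same order. The count of members with the higher response in F4/80lo moved over 0 to 6 (0.465% to 1.27% of all genes). The medians ranged over −0.44 to −0.20 in F4/80lo, −0.64 to −0.40 in F4/80hi, −0.15 to 0.02 for the level and 0.08 to 0.34 for the difference. The F4/80lo median came nearest to 0 without CIII number 3. For the level, the count of members lower in F4/80lo was 3 without F4/80hi VEH number 3 (6.13% of all genes). It was 2 without F4/80hi CIII number 3 (3.47%) or F4/80lo CIII number 1 (2.95%). It was 1 without F4/80lo VEH number 1 (2.86%) or CIII number 2 (2.06%). For the difference of responses, the count of members with the higher response in F4/80lo was 2 (0.713% of all genes). It was 0 without F4/80hi VEH number 1 (0.465%), 4 without F4/80hi CIII number 1 (0.881%) and 6 without F4/80lo CIII number 3 (1.27%). In that last setting 1 member also had the lower response (1.84%). The count was 1 without F4/80hi CIII number 2 or 3, or F4/80lo VEH number 2 or 3 or CIII number 2 (0.535% to 0.683% of all genes). Depth limits the low members most, since in the shallowest library the median over the 78 genes was 9 reads. The cause of these changes was not tested.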
